A study of Homo sapiens with 4 samples.

Results

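The 8 genes described here encode the enzymes that make polyamines and the proteins that hold those enzymes in check. They are ODC1, OAZ1, OAZ2, AZIN1, AMD1, SMS, SRM and SAT1, taken by gene symbol from a table of 15942 genes, and all 8 passed the filter on low counts that left 15557 genes to test. RNA was sequenced from H9, a human embryonic stem cell (hESC) line, kept on Matrigel in E8 medium. Controls were given a short interfering RNA (siRNA) to luciferase, a firefly gene (siLuc), and the other cells an siRNA to UPF1 (siUPF1), with 2 libraries in each group. UPF1 is a helicase that nonsense-mediated decay (NMD) of RNA depends on, and the comparison asks which RNA levels differ when it is depleted. All 4 libraries carry 1 treatment note, which speaks of an siRNA to UPF3A and of actinomycin D at several times, and does not say which time applies to a library. Both control columns carry the same name, so the names control a and control b follow the order of the table.

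Polyamines (putrescine, spermidine and spermine) are small positively charged molecules that bind RNA and are needed for growth and translation. Ornithine decarboxylase (ODC1) makes putrescine, S-adenosylmethionine decarboxylase (AMD1) supplies the aminopropyl donor, and spermidine synthase (SRM) and spermine synthase (SMS) build the longer polyamines. Antizymes (OAZ1, OAZ2) bind ODC1 and deliver it to the proteasome, antizyme inhibitor (AZIN1) is an inactive relative of ODC1 that soaks up antizyme, and SAT1 acetylates polyamines for export or breakdown. Whether several of these proteins are made turns on an unusual step in translation or splicing that polyamines themselves control. The course that does not make the protein ends translation at a stop codon ahead of exon junctions, the feature that NMD is known to read.

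Those stop codons can be seen in the reference transcripts of GENCODE release 29 (GRCh38), and 4 of them are shown because they are the reason this pathway is of interest in cells with less UPF1. In OAZ1 and OAZ2 the full protein is made when the ribosome skips 1 base at the first stop of the initial reading frame, which capitals mark here. The reference annotation leaves out the first base of that stop codon from the coding sequence of both genes. The windows lie at chr19:2271428-2271457 (plus strand) and chr15:64691501-64691530 (minus strand), inside coding exons.
OAZ1: cctcggtggtgctccTGAtgcccctcaccc
OAZ2: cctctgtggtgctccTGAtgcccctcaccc
The windows share 29 of 30 bases. Without the shift, translation would stop after 68 codons in OAZ1 and 32 codons in OAZ2, with 3 exon junctions downstream in each.

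AMD1 carries a short upstream reading frame in its 5' UTR, at chr6:110874796-110874816 (plus strand), whose start and stop codons are in capitals.
AMD1: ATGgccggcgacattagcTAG
It is 6 codons long before its stop, it starts at the 1 AUG found upstream of the main start in the coding transcript read here, and its stop lies 289 bases ahead of that start. Downstream of this stop are 8 exon junctions.

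SAT1 has an exon that is spliced in or left out, at chrX:23784294-23784403 (plus strand). It is absent from the coding transcript compared and present in a noncoding one, and the first stop codon in frame with the coding start is in capitals.
SAT1: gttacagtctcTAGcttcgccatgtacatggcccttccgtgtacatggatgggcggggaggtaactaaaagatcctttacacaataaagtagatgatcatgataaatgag
The exon is 110 bases long, and its stop ends the frame after 71 codons with 3 exon junctions downstream. The table gives 1 count per gene, and its SAT1 row covers both the coding transcript and this noncoding one. Inclusion of the exon, use of the upstream frame and frameshifting were therefore not measured. The reference annotation holds transcripts typed as NMD substrates for 3 of the 8 genes, namely 2 of 8 transcripts of AMD1, 1 of 11 of OAZ1 and 1 of 6 of SRM.

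The libraries held 8887239 and 9937231 counts in the controls and 10058515 and 11200973 in siUPF1 replicates 1 and 2. UPF1 itself stood at 219 and 205 CPM (counts scaled to 1000000 per library, with TMM factors) in the controls and at 60.8 and 78.2 CPM after its siRNA, a log2 fold change of -1.60 (SE 0.07). All 9 markers of undifferentiated stem cells that were listed were tested. Their summed level was 1894 to 2031 CPM in the controls and 1622 to 1762 CPM after siUPF1, and 6 of 9 fell, where 9.14% of all tested genes did. These 9 markers held 0.44 to 0.89 reads per transcript base, NANOG alone under 0.5. Of all genes at 0.25 to 0.5 reads per base 7.62% fell, of those at 0.5 to 0.75 13.1%, and of those at 0.75 or more 39.1%. The part of read density in the fall of the markers was not tested. Summed markers of trophoblast or amnion, 4 tested, stood at 16.4 to 17.2 and 22.2 to 23.6 CPM, with 2 higher, and those of endoderm (2 tested) and mesoderm (2 tested) were below 10 CPM in every library, each with 1 higher and 1 lower. Fibroblast markers (4 tested, 494 to 522 CPM) did not pass in either direction, and of 5 neural markers (473 to 545 CPM) 2 fell. The part of these shifts in the results below was not tested.

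In these counts, 7 of the 8 polyamine genes did not pass the test between the groups. None of the 8 rose in edgeR's quasi-likelihood test (Benjamini-Hochberg adjusted p, threshold 0.05), where 16.8% of all tested genes did, and AMD1 alone fell, where 9.14% did. At an unadjusted p of 0.05 in edgeR, 1 was higher and 2 were lower, against 21.3% and 15.2% of all tested genes. DESeq2 called 0 in either direction (8.19% higher and 2.99% lower over all genes), and 0 higher and 1 lower at an unadjusted p of 0.05 (13.9% and 8.14%). The median log2 fold change of the 8 was -0.05, against -0.01 over all tested genes. No 95% interval of a member reached beyond -0.34 or 0.29 on the log2 scale, a change of 1.26-fold. That is a limit on the fold change of the deposited counts and not on that of the RNA in the cells. Fold changes in this table span a narrower range the more densely a gene is covered, and 7 of the 8 are over 0.5 reads per transcript base, so their fold changes may be compressed, which was not tested. The siUPF1 pair exceeded the control pair for 1 gene (32.3% of all tested genes) and was under it for 3 (31.1%), so 4 of 8 groups did not overlap, against 63.4% of all tested genes. No label ties the 2 libraries of a group to different cultures, so the spread between libraries may be technical. In the fit on the counts as deposited that spread is shared across genes, and a gene's own hardly enters its p-value. SMS and SRM, with SEs of 0.073 and 0.079, stood at 97.3 ± 9.17 and 66.1 ± 1.35 CPM after siUPF1 (SD, n = 2 each).

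**Figure D1:**
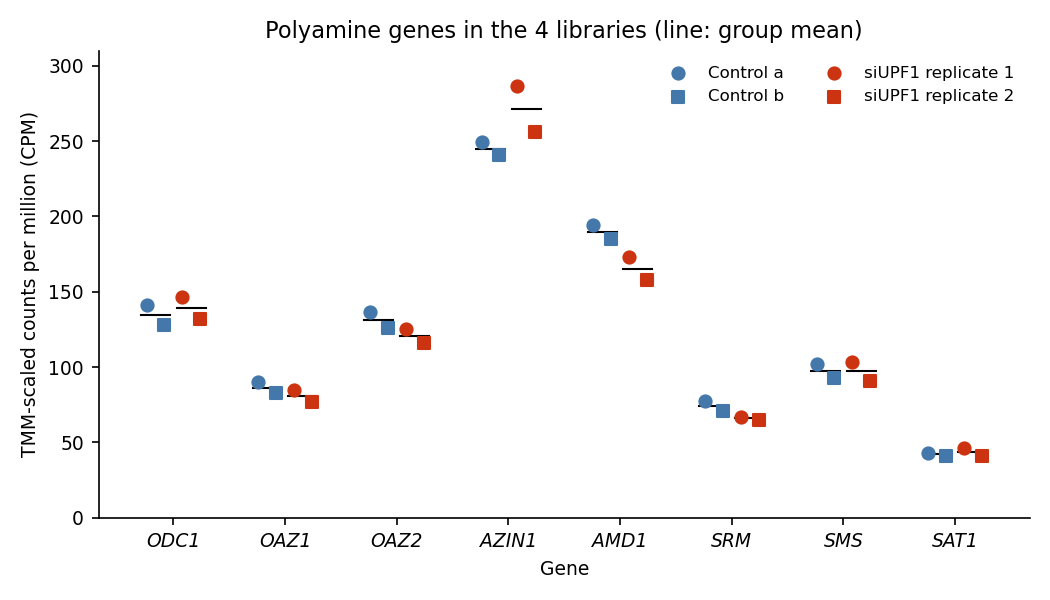
TMM-scaled CPM of the 8 genes (vertical axis) in each of the 4 libraries, controls in blue and siUPF1 in red, with a line at each group mean. AZIN1 is the only gene with both siUPF1 libraries above both controls, and AMD1, SRM and OAZ2 have both below.

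ODC1, the enzyme that commits ornithine to polyamine synthesis and one of the shortest-lived proteins in the cell, overlapped between the groups. It stood at 141 and 128 CPM in the controls and at 146 and 132 CPM in siUPF1 replicates 1 and 2. The deeper library of each group was the lower one. ODC1 changed by 0.05 on the log2 scale (SE 0.07, 95% interval -0.09 to 0.18), and did not pass (adjusted p = 0.659, edgeR quasi-likelihood test).

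AMD1, whose product is the other decarboxylase of the pathway, fell to 165 ± 10.6 CPM from 190 ± 6.67 CPM (SD, n = 2 each), or 87.1% of the control level. It stood at 195 and 185 CPM in the controls and at 173 and 158 CPM after siUPF1, so both siUPF1 libraries were below both controls. The log2 fold change was -0.20 (SE 0.07, 95% interval -0.34 to -0.06), with an adjusted p of 0.0224 in edgeR's quasi-likelihood test. The call was lost in DESeq2 (adjusted p = 0.103). In edgeR it was also lost without control a (-0.17, adjusted p = 0.328), without control b (-0.24, adjusted p = 0.0859) and without siUPF1 replicate 2 (-0.13, adjusted p = 0.21). Over 11 alternatives its adjusted p ran from 0.00357 to 0.328. GENCODE names 4 processed pseudogenes of AMD1, and the counting of reads that match several places is not stated in those sources.

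SRM and SMS, which add the first and the second aminopropyl group, did not pass. SRM was at 77.5 and 71.0 CPM in the controls and at 67.0 and 65.1 CPM after siUPF1. Both siUPF1 libraries were lower, and the log2 fold change was -0.17 (SE 0.08, 95% interval -0.32 to -0.01, adjusted p = 0.104, edgeR quasi-likelihood test). SMS was at 102 and 92.8 CPM in the controls and at 104 and 90.8 CPM after siUPF1. The controls lay between the siUPF1 libraries, and its 95% interval ran from -0.14 to 0.14. SRM also has 2 named processed pseudogenes.

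The antizymes did not pass either. OAZ1, the most widely expressed antizyme, was at 90.1 and 82.6 CPM in the controls and at 84.6 and 76.9 CPM after siUPF1. The groups overlapped, with a log2 fold change of -0.10 (SE 0.08, 95% interval -0.24 to 0.05, adjusted p = 0.369, edgeR quasi-likelihood test). OAZ2 was at 136 and 126 CPM in the controls and at 126 and 116 CPM after siUPF1. Here both siUPF1 libraries were lower, replicate 1 by less than 1 CPM from control b, and the log2 fold change was -0.12 (SE 0.07, 95% interval -0.26 to 0.02, adjusted p = 0.197). Exons of OAZ1 overlap JSRP1 on the other strand and a gene model on the same strand, and OAZ2 and AZIN1 each have an antisense gene. The sources do not state whether counting used strand, so reads of these partners cannot be told apart.

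AZIN1, which frees ODC1 by binding antizyme, had the highest count of the 8 and was the 1 gene above the controls in both siUPF1 libraries. It stood at 249 and 241 CPM in the controls and at 287 and 256 CPM in siUPF1 replicates 1 and 2. The gap between the siUPF1 libraries was larger than the gap between their lower one and the controls. AZIN1 changed by 0.15 on the log2 scale (SE 0.07, 95% interval 0.01 to 0.29) and did not pass (adjusted p = 0.113, edgeR quasi-likelihood test). Without siUPF1 replicate 2 it did pass, at 0.23 with an adjusted p of 0.0174, and without replicate 1 it stood at 0.07 with an adjusted p of 0.56.

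SAT1, the acetyltransferase that starts polyamine breakdown, had the lowest level of the 8, with 43.3 and 41.1 CPM in the controls and 46.1 and 41.3 CPM after siUPF1. The groups overlapped. Its log2 fold change was 0.05 (SE 0.09, 95% interval -0.13 to 0.23, adjusted p = 0.734, edgeR quasi-likelihood test). The level of the form that carries the extra exon cannot be read from this sum.

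Per transcript length the counts of the 8 genes lay close together. In RPKM (reads per kilobase of transcript, scaled to library depth, computed from the counts), the control means ran from 73.4 for OAZ1 through 68.3 for OAZ2, 67.3 for ODC1, 58.6 for SRM, 57.6 for AMD1, 56.6 for AZIN1 and 53.7 for SMS to 37.0 for SAT1. Over all 4 libraries neighbours in this order overlapped, except ODC1 with SRM and SMS with SAT1. All 8 genes were among the most densely covered of the table. They held 0.38 to 0.71 reads per transcript base, and 7 of them were over 0.5, as were 6.89% of tested genes. Across the table no gene with at least 100 counts exceeded 1.12 reads per base, and the 10 most abundant genes together took 0.643% to 0.693% of a library's counts. The part of this limit in the closeness of the 8 levels was not tested, so their order describes the deposited counts.

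Read density moved with the fold changes. Of 962 tested genes at 0.5 to 0.75 reads per base, the range that holds 7 of the 8, 2.29% rose and 13.1% fell, and their median log2 fold change was -0.11 (5th to 95th percentile -0.22 to 0.10). The value of AMD1, -0.20, lies inside that span and that of AZIN1, 0.15, above it. Among 5322 genes under 0.1 reads per base, 21.1% rose and the 5th to 95th percentile ran from -0.76 to 1.10. Depth moved with the levels too. In 8 of 8 genes the deeper library of both groups had the lower CPM, as in 93.5% of genes over 0.5 reads per base and 28.2% of all tested genes. The median log2 ratio of the 8 genes was -0.12 for control b over a and -0.14 for siUPF1 replicate 2 over 1. Together the siUPF1 libraries held 12.9% more counts than the controls. The part of depth in the differences between the groups, that of AMD1 among them, was not tested.

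**Figure D2:**
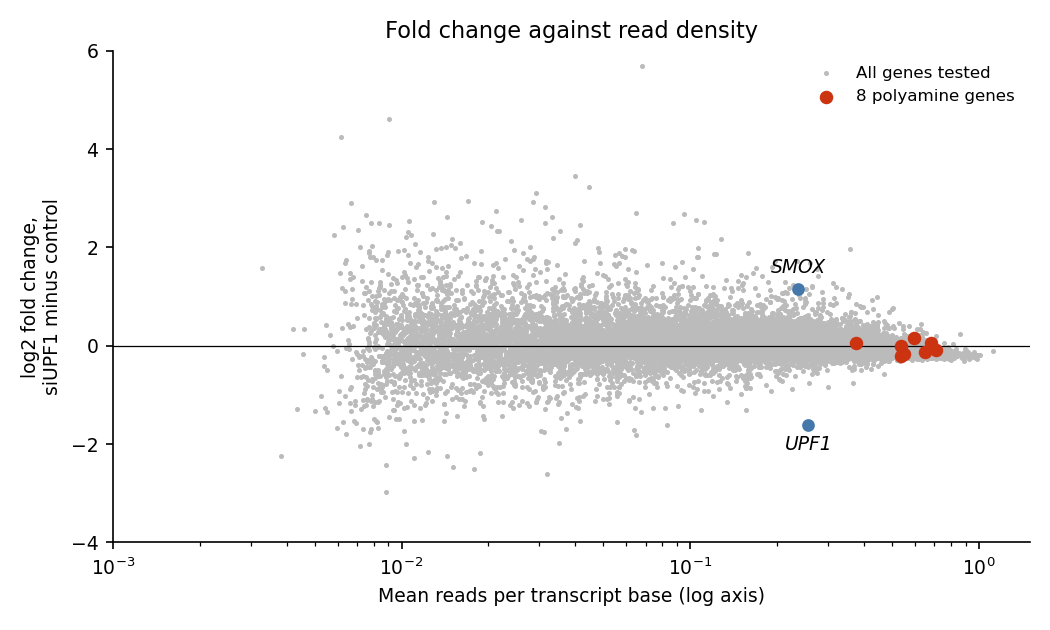
Log2 fold change of every tested gene (vertical axis, siUPF1 minus control) against its mean reads per transcript base (log axis), with the 8 polyamine genes in red and SMOX and UPF1 in blue. The spread of fold changes narrows to the right, where 7 of the 8 genes lie over 0.5 reads per base.

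When each library's trend on reads per base was taken out, ODC1 and AZIN1 passed and AMD1 did not. In that fit 15.3% of tested genes rose and 10.5% fell. AZIN1 stood at 0.25 (SE 0.04, adjusted p = 0.00279, edgeR quasi-likelihood test) and ODC1 at 0.17 (SE 0.04, adjusted p = 0.017). The SE of each was 0.07 on the counts as deposited, so these calls rest on a smaller SE as well as on a shift in value. AMD1 stood at -0.12 (SE 0.04, adjusted p = 0.0585). OAZ1 changed sign to 0.04 and SMS to 0.08, OAZ2 came to -0.0047 and SRM to -0.08, and SAT1 stood at 0.08. Which of the 2 fits is nearer to the RNA in the cells was not tested.

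**Figure D3:**
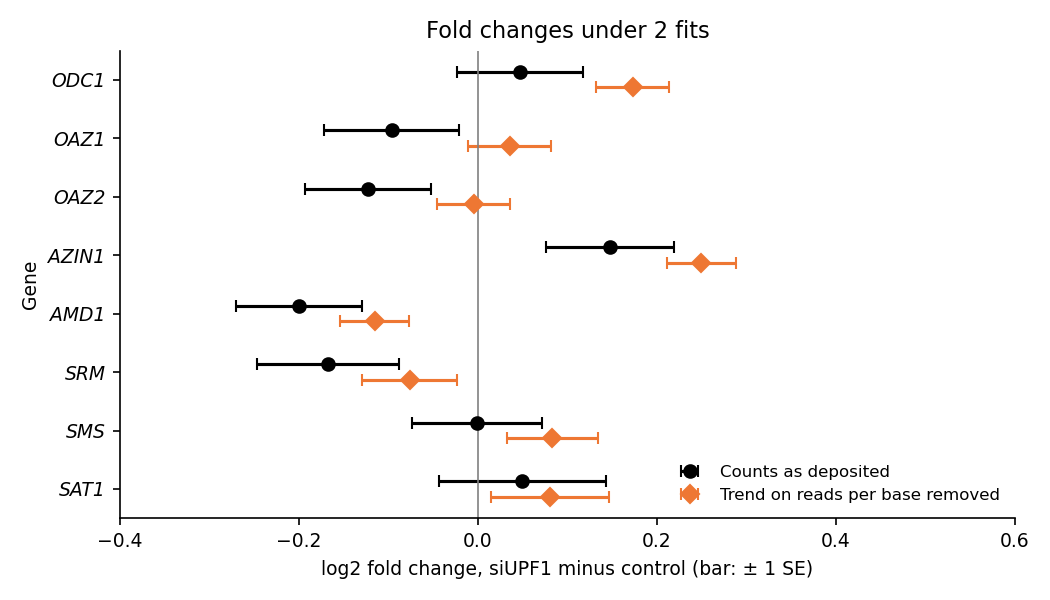
Log2 fold change of the 8 genes (horizontal axis, siUPF1 minus control, bars ± 1 SE) in the fit on the counts as deposited (black) and after removal of the trend on reads per base (orange). All 8 values move to the right in the second fit, and those of AZIN1 and ODC1 pass there, at 0.25 and 0.17.

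Ratios between genes within a library do not depend on how libraries are scaled to each other. ODC1 to the sum of both antizymes, per transcript base, was 0.478 and 0.471 in the controls and 0.532 and 0.526 after siUPF1. ODC1 thus stood higher relative to the antizymes in both siUPF1 libraries, by 0.16 on the log2 scale. AZIN1 to both antizymes was 0.390 and 0.409 in the controls and 0.482 and 0.471 after siUPF1, a difference of 0.26. This gap was larger than the spread within either group.

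Among the synthetic enzymes, AMD1 to ODC1 was 0.836 and 0.878 in the controls and 0.718 and 0.725 after siUPF1, a log2 difference of -0.25 with no overlap. SRM to SMS was 1.09 in both controls and 0.924 and 1.03 after siUPF1. That pair did not overlap either, though the siUPF1 libraries differed from each other by more than the nearer one did from the controls. SAT1 to ODC1 overlapped, at 0.538 and 0.563 against 0.553 and 0.548. OAZ2 to OAZ1 differed by only 0.03 downward, at 0.927 and 0.935 against 0.907 and 0.921. With 2 libraries against 2, the smallest two-sided p of an exact permutation test is 0.333, so no ratio can pass a threshold of 0.05. The 5 of 6 ratios that reached it are those whose groups did not overlap. Of single tested genes 63.4% did not overlap either. The share over ratios of other gene pairs was not computed, and the 6 ratios share genes.

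**Figure D4:**
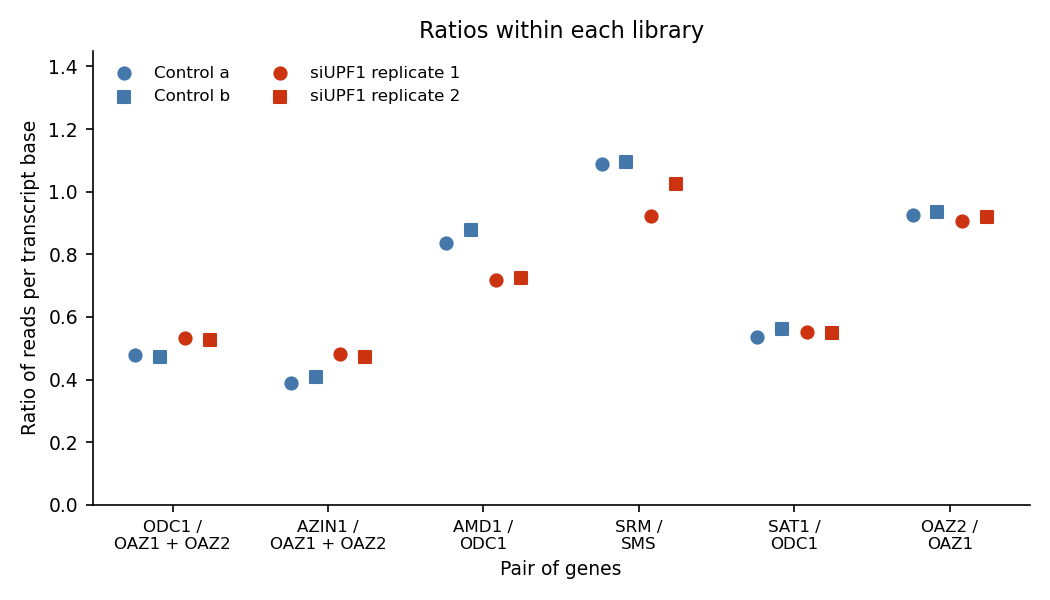
Ratio of reads per transcript base between pairs of genes (vertical axis) within each of the 4 libraries, controls in blue and siUPF1 in red. The siUPF1 libraries lie above the controls for ODC1 and AZIN1 over both antizymes. They lie below the controls for AMD1 over ODC1, SRM over SMS and, by little, OAZ2 over OAZ1, and overlap them for SAT1 over ODC1.

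Around the 8 genes, 53 genes in 8 lists cover the rest of polyamine metabolism, its precursors and the MYC network, of which 48 were tested. After siUPF1, 10 rose, 6 fell and 32 did not pass, or 20.8% and 12.5% against 16.8% and 9.14% of all tested genes. Their median log2 fold change was -0.01. The counts per list below stand against the same shares of all tested genes. DESeq2 called 5 higher and 2 lower, and with a control left out edgeR called 4 to 5 higher and 2 lower.

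In polyamine oxidation 2 of 3 tested genes rose, where 16.8% of all tested genes did, among them the gene with the highest log2 fold change of the 48. SMOX, the spermine oxidase that turns spermine back into spermidine, was at 33.7 and 32.9 CPM in the controls and at 77.3 and 70.6 CPM after siUPF1. The mean of the siUPF1 libraries was 2.22-fold that of the controls, with a log2 fold change of 1.15 (SE 0.09, adjusted p = 3.6e-36, edgeR quasi-likelihood test). It passed under all 12 alternatives run for it, at 1.08 to 1.22. SMOX held 0.24 and PAOX 0.071 reads per base, less than any of the 8 genes. Of all tested genes at 0.1 to 0.25 reads per base 21.5% rose, and of those under 0.1 it was 21.1%. PAOX, the oxidase of acetylated polyamines, rose to 15.1 ± 0.231 CPM from 10.4 ± 0.127 CPM (SD, n = 2 each), by 0.54 (SE 0.16), and its call was lost in DESeq2 (adjusted p = 0.132) and without either control (0.0998 and 0.09 in edgeR). SAT2, a relative of SAT1, stood at 0.25 (SE 0.10) and did not pass (adjusted p = 0.0635, edgeR quasi-likelihood test), but did once the trend on reads per base was taken out (0.0266) and without siUPF1 replicate 2 (0.0256).

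Both rarer relatives of the antizyme system rose, from low counts. OAZ3 held 0.062 and AZIN2 0.013 reads per base, and 21.1% of tested genes under 0.1 rose. OAZ3, known as the testis antizyme, had 26 and 29 counts in the controls and 58 and 55 after siUPF1, a log2 fold change of 0.87 (SE 0.26). AZIN2, the second antizyme inhibitor, had 11 and 16 counts in the controls and 29 and 38 after siUPF1, a log2 fold change of 1.13 (SE 0.33). Both calls were lost in DESeq2 (adjusted p = 0.174 and 0.196). In edgeR OAZ3 was lost without control a or control b (0.0662 and 0.0835) and AZIN2 without control a or siUPF1 replicate 2 (0.124 and 0.0509). OAZ3 shares exonic sequence with MRPL9 and TDRKH on the other strand, so its reads cannot be told apart from theirs.

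Of 7 polyamine transport genes tested, 1 rose, SLC22A3, with 0.065 reads per base. Over all tested genes 16.8% rose, and of those under 0.1 reads per base 21.1%. SLC22A3, an organic cation transporter, was at 13.9 and 16.1 CPM in the controls and at 26.9 and 25.1 CPM after siUPF1. It rose by 0.79 (SE 0.13, adjusted p = 1.05e-07, edgeR quasi-likelihood test), and passed under all 12 alternatives run for it. SLC3A2, the densest of the list at 0.72 reads per base, stood at 0.00 and did not pass. The endosomal polyamine exporters ATP13A2 (0.05) and ATP13A3 (-0.08) did not pass either.

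Spermidine is also spent on hypusine, a modified lysine found in the translation factor eIF5A. Of the 4 genes of that step, DOHH, the hydroxylase that completes hypusine, rose by 0.36 (SE 0.09), a call lost without control b (adjusted p = 0.0685, edgeR quasi-likelihood test). EIF5A itself stood at -0.14 (SE 0.07) with 0.83 reads per base, and did not pass, except without siUPF1 replicate 1 (-0.21, adjusted p = 0.0217). DHPS (-0.02) and EIF5A2 (0.03) did not pass.

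Precursor supply went both ways. Of 8 genes of ornithine and arginine supply, the arginine transporter SLC7A1 (0.19, SE 0.07) and the argininosuccinate synthase ASS1 (0.25, SE 0.08) rose. The ornithine aminotransferase OAT (-0.24, SE 0.07) and AGMAT (-0.40, SE 0.12) fell. The densest gene of that list, ALDH18A1, stood at -0.11 (SE 0.07). DESeq2 called none of these 4, with adjusted p from 0.055 to 0.183. In edgeR, SLC7A1 and ASS1 were lost without either control (SLC7A1 0.12 and 0.389, ASS1 0.101 and 0.259), OAT likewise (0.242 and 0.0537), and AGMAT without control b (0.1). SLC7A1 was also lost without siUPF1 replicate 1 (0.074) and OAT without siUPF1 replicate 2 (0.0685).

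Of 7 genes of S-adenosylmethionine supply, the methionine synthase reductase MTRR rose by 0.29 (SE 0.07) and the methionine adenosyltransferase MAT2A fell, with a log2 fold change of -0.18 (SE 0.07). AHCY, the densest of them, stood at -0.14 and did not pass, except without siUPF1 replicate 1 (-0.21). The MAT2A call was lost under the same 5 alternatives as that of AMD1, among them removal of the trend on reads per base (-0.08, adjusted p = 0.156, edgeR quasi-likelihood test) and control a left out (0.483), and MTRR was lost without control a (0.0589). Of 6 genes that salvage methylthioadenosine, the by-product of spermidine and spermine synthesis, MRI1 fell, with a log2 fold change of -0.30 (SE 0.10). Its call was lost in DESeq2 (0.202) and, in edgeR, without control a (0.368) or siUPF1 replicate 2 (0.0553). MTAP, the first enzyme of the salvage, stood at 0.01, and ENOPH1, the densest, at 0.05.

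**Figure D5:**
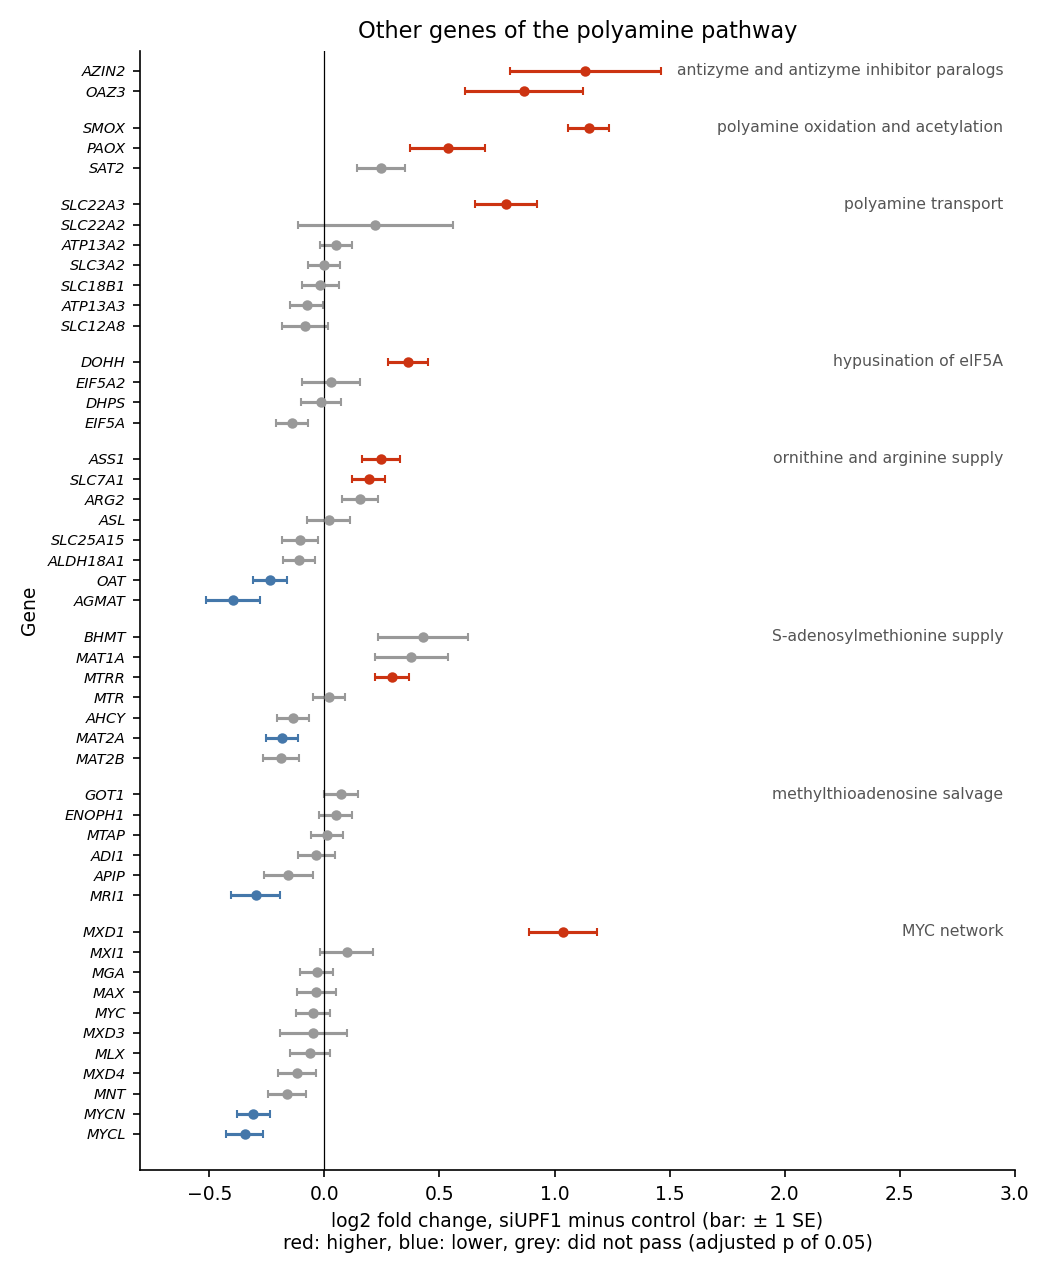
Log2 fold change (horizontal axis, siUPF1 minus control, bars ± 1 SE) of the 48 other pathway genes tested, grouped by list, in red where higher, blue where lower and grey where the adjusted p did not pass 0.05. SMOX at 1.15 stands out by its size and small error, and the genes of the supply lists lie on both sides of 0, from -0.40 (AGMAT) to 0.43 (BHMT).

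The gene most like AMD1 over the 4 libraries was IMPDH2, a rate-limiting enzyme of guanine nucleotide synthesis, out of 4015 genes within 2-fold of its mean CPM. The likeness was measured as the Euclidean distance between centred log2 CPM values, which was 0.0074. IMPDH2 stood at 116, 110, 103 and 94.6 CPM in control a, control b and siUPF1 replicates 1 and 2, a log2 fold change of -0.20. With 4 libraries, such a match describes these libraries only.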

How the data were processed

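Per the labels' protocols, RNA of the 4 samples was isolated by Trizol for standard Illumina sequencing. The authors deposited read counts per gene, whole numbers with no normalization. RPKM values, deposited in the same table, stand beside the counts. STAR and DESeq2 are named with the build hg19, per the submitters' processing notes, with no version or role. The handling of strand, multimapping and repeated reads: not given in the sources used here. Of 8 value columns, 2 (control RPKM) were left unused, and transcript lengths were derived from the counts and RPKM of siUPF1.

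The test was edgeR 4.0.16 (glmQLFit, glmQLFTest, two-sided) in R 4.3.3 with TMM scaling, the filterByExpr filter and Benjamini-Hochberg adjustment over 15557 genes at 0.05. The SE is the log2 fold change over the square root of F, and 95% intervals use the fit's degrees of freedom. The biological coefficient of variation was 4.47%. With 2 libraries per group the spread is borrowed across genes, so a gene's own spread hardly enters its SE, p-value or interval. The test was also run on simulated data for siUPF1 against control (15557 genes, 200 changed, all over 5 CPM). It found 96% of the 2-fold changes and 87% of the 1.41-fold ones and made 13 false calls. No smaller change was simulated, and no 95% interval of the polyamine genes under study reached beyond 1.26-fold. The recovery of changes of that size was therefore not tested. The simulated counts also carried no trend on reads per base, so recovery in densely covered genes was not tested either. In the data 4035 genes passed in either direction, so the false calls among 200 changed genes do not carry over to it.

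The trend on reads per base was removed as an offset from a loess fit (span 0.3) of each library's log2 ratio to the mean. Alternatives were RLE factors, library totals, DESeq2 1.42.0, limma-voom (limma 3.58.1), no low-count filter, 5 CPM in 2 libraries, genes under 0.25 reads per base, an adjusted p of 0.1 and each library left out. Named were all 8 genes, UPF1, up to 4 called genes per list with the smallest p and a list's densest gene where it did not pass; other genes were named after their values were seen. The members and lists were chosen with earlier results of these data known. Stop codons were read from GENCODE 29 (GRCh38) transcripts. No sequence of AZIN1 is shown.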

Additional observations from a re-analysis of the deposited data

How the results depend on the processing

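No paired analysis was possible because both control columns carry the same name and so no replicate number. Taking out the trend on reads per base, 2 of the 8 genes were higher and 0 lower (1 lower at an unadjusted p of 0.05, edgeR); OAZ1 turned to 0.035, SMS to 0.083, EIF5A to 0.019 and SLC3A2 to 0.13 (adjusted p = 0.0396, edgeR quasi-likelihood test). With a filter of 5 CPM, SMS and SLC3A2 turned to 0.00067 and 0.0010. With 1 library left out, 0 to 1 of the 8 were higher and 0 to 1 lower, ODC1 ran from -0.031 to 0.12, SAT1 from -0.029 to 0.13, SMS from -0.098 to 0.095, SLC3A2 from -0.076 to 0.067 and ENOPH1 from -0.0074 to 0.11. DESeq2 called 0 of the 8 lower. Over all genes DESeq2 called 1274 higher and 465 lower, against 2613 and 1422 in edgeR; with 1 library left out edgeR called 1444 to 2764 and 552 to 1522. Of the other pathway genes DESeq2 called 5 higher and 2 lower, and with 1 library left out edgeR called 4 to 11 and 2 to 9. Among genes under 0.25 reads per base only, where none of the 8 is left, 1682 of all genes were higher, and 6 other pathway genes were higher and 3 lower. The cause of these changes was not tested, except that the last setting tests fewer genes. SMOX, SLC22A3 and MXD1 kept their direction and their call under every alternative run. Where 1 library was left out, the lone one remaining was taken to vary as the other group does. SAT1, with 383 to 464 counts per library, had an SE of 0.09, and AMD1, with 1720 to 1856, one of 0.07. Exons of MXD1, PAOX and MRI1 overlap a coding gene on the same strand. Those of MTRR, MAT2A and AGMAT overlap exons of coding genes on the other strand, and reads of all these partners cannot be told apart.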

Other observations

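MYC proteins are known activators of ODC1, and the genes of their network were listed for that reason. Of 11 tested, 1 rose, 2 fell and 8 did not pass, with a median log2 fold change of -0.05 against -0.01 over all tested genes, of which 16.8% rose and 9.14% fell. MYC was at 99.0 and 91.8 CPM in the controls and at 92.9 and 91.4 CPM after siUPF1, and did not pass (-0.05, SE 0.07). MYCN, the family member of embryonic and neural cells, fell to 111 ± 2.32 CPM from 138 ± 12.2 CPM (SD, n = 2 each), with a log2 value of -0.31 (SE 0.07). MYCL changed likewise, by -0.35 (SE 0.08). The MYCN call was lost without control a (adjusted p = 0.153) and that of MYCL without control b (adjusted p = 0.0692, edgeR quasi-likelihood test). MXD1, a partner of MAX that opposes MYC, was at 10.4 and 12.0 CPM in the controls and at 23.9 and 22.2 CPM after siUPF1. It rose by 1.04 (SE 0.15, adjusted p = 9.89e-11, edgeR quasi-likelihood test), in both siUPF1 libraries. It held 0.031 reads per base, against 0.46 for MYCN. Exons of MXD1 overlap SNRNP27 on the same strand, and MYCN and MYCL each have an antisense gene, so reads of these partners cannot be told apart.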
